A study of Mus musculus with 6 samples.

Results

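In mouse embryonic stem cells rescued with a doubly substituted WDR5, the positions of WDR5 were compared with the positions of trimethylated lysine 4 of histone H3 (H3K4me3) in the same line. The material was every WDR5 peak and every H3K4me3 region that the authors listed for this line on chromosomes 1 to 19. These were 26691 WDR5 peaks and 71757 H3K4me3 regions, together 98448 of the 183983 entries in the 4 peak lists of the series. The summit of each WDR5 peak was placed inside an H3K4me3 region or given its distance to the nearest one, and each H3K4me3 region was counted as holding a WDR5 peak when the 2 overlapped by at least 1 bp.

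All cells of the series carry a GFP knock-in at Rx and were kept in 2i+LIF, a medium with 2 kinase inhibitors and leukaemia inhibitory factor that holds embryonic stem cells in the naive state. All lack both Wdr5 and p53. The mutant rescue line expresses WDR5S91KY191F, in which serine 91 is replaced by lysine and tyrosine 191 by phenylalanine, and the WT rescue line expresses WDR5WT. Each line gave 1 WDR5, 1 H3K4me3 and 1 input library from chromatin fixed for 10 minutes in 1% formaldehyde, and the input libraries were not analysed here. The labels do not say how many clones stand behind a line or how strongly each rescue protein is expressed. With 1 library per antibody and line there is no replicate spread, so nothing below has a test and no p-value is given. A difference between the lines cannot be told apart from a difference between 2 libraries.

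WDR5 is a WD-repeat scaffold protein of the KMT2/SETD1 methyltransferase complexes, which methylate lysine 4 of histone H3, and it also takes part in other chromatin complexes. H3K4me3 marks the nucleosomes just downstream of the starts of many genes, and broad H3K4me3 domains are known at genes of cell identity. A mark at a gene start does not show that the gene is transcribed. Of the naive pluripotency genes on chromosomes 1 to 19, all 24 had an H3K4me3 region within 1 kb of the start in the mutant rescue, among them the transcription factor genes Klf4 and Prdm14. For the fibroblast list, which would mark feeder cells, this was 6 of 13, and over all protein-coding genes 69.4%.

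The promoters with the strongest WDR5 peaks inside H3K4me3 belonged mainly to genes of cytosolic ribosomal proteins, the protein components of the ribosome, which were 7 of the 10 genes of highest WDR5 fold. The promoters of the 5 of highest fold that have an entry in the reference promoter table are shown as examples, and H2-D1 differs from the others. They are RefSeq's, in mm10 coordinates (assembly GRCm38.p6), and run from 250 bases before the gene start to 30 after it. Capitals mark matches, on either strand, to the 8 short motifs described further on. Rpl26 lies on the plus strand at chr11:68901316-68901595, Rps24 on the plus strand at chr14:24490503-24490782 and H2-D1, a classical MHC class I gene, on the plus strand at chr17:35262844-35263123. Rpl35 lies on the minus strand at chr2:39005102-39005381 and Rpl11 on the minus strand at chr4:136053364-136053643.
Rpl26: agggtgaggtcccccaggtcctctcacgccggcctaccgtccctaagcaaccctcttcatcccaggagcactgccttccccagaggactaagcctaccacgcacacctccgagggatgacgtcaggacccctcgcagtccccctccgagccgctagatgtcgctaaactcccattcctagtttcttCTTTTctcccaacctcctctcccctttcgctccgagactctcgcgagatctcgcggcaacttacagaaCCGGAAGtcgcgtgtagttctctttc
Rps24: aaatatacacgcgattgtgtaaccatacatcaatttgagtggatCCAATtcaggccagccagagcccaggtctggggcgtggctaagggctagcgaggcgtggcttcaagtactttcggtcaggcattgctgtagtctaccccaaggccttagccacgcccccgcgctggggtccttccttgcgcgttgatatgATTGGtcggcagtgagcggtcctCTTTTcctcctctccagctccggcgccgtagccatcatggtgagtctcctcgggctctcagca
Rpl35: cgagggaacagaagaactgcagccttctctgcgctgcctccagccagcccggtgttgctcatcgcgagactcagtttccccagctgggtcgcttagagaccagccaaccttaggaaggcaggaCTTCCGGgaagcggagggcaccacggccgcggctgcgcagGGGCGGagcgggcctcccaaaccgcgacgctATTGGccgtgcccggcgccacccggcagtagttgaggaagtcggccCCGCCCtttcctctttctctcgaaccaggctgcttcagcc
Rpl11: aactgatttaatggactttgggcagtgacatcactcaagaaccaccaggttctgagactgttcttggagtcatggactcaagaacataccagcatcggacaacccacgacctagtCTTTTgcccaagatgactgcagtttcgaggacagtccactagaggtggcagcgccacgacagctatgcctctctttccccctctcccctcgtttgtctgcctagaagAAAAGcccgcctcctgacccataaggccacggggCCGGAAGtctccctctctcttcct
H2-D1: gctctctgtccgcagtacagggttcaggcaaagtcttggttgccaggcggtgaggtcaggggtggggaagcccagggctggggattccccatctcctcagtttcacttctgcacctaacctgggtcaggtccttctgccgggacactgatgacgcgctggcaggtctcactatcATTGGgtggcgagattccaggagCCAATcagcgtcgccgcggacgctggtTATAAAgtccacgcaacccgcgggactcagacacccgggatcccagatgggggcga

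The WDR5 peaks at the ribosomal protein genes were long and lay over most of these sequences. At Rpl26 the peak was 1943 bp wide and covered all 280 bases printed, with a fold enrichment of 17.75, which is the authors' own value for the peak, as are all folds given here. At Rps24 it was 1082 bp wide with a fold of 16.4 and covered 266 of the 280 bases. At Rpl35 and Rpl11 the peaks covered all 280 bases, with widths of 1258 and 1541 bp and folds of 15.5 and 15.4. At H2-D1 the peak was only 276 bp wide, with a fold of 16.5, and covered 164 bases. The WDR5 peak of Rpl26 was wider than the H3K4me3 region it lay in, which spanned 1707 bp, whereas at Rps24, Rpl35 and Rpl11 the H3K4me3 regions of 1603, 1622 and 1633 bp were wider than the WDR5 peaks.

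Of the 26691 WDR5 summits of the mutant rescue, 2944 lay inside an H3K4me3 region, which is 11.03% (exact 95% binomial interval 10.7 to 11.4, which like all intervals here covers counting error only). H3K4me3 regions took up 61.8 Mb, or 2.51% of the span that the lists cover, so WDR5 summits fell inside them 4.40 times as often as their share of the genome. A further 265 peaks touched a region with their summit outside it. The WT rescue had a shorter WDR5 list, and 4862 of its 10942 summits lay inside, which is 44.4% (43.5 to 45.4). H3K4me3 regions covered a similar share of the genome in that line, 2.46%. Counted by length, the mutant rescue had 52.4 WDR5 peaks per Mb touching H3K4me3 and 9.79 per Mb elsewhere, against 83.3 and 2.47 in the WT rescue. The 2 lines therefore differed in their lists both inside H3K4me3, where the mutant rescue had fewer peaks, and outside it, where it had more.

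The share inside H3K4me3 depended on how strong the WDR5 peak was. The deposited lists go down to a −log10 p of 2, and most mutant rescue WDR5 peaks were near that limit. Of 9801 peaks with a −log10 p from 2 to 3, 6.84% had their summit inside H3K4me3, and of 10616 peaks from 3 to 4, 7.58%. The share rose to 12.7% from 4 to 5, 28.3% from 5 to 10, 64.4% from 10 to 20 and 84.3% of the 337 peaks at 20 or more. The weakest class of the WT rescue already had 31.8% inside and the strongest 93.9% of 261 peaks. Between −log10 p of 10 and 20 the intervals of the lines overlapped, with 64.4% (58.1 to 70.3) in the mutant and 61.8% (54.7 to 68.5) in the WT rescue, and this was the one class in which they did. The gap was widest from 5 to 10, at 28.3% against 68.3%, and at 20 or more the intervals were again apart (79.9 to 88.0 against 90.2 to 96.5).

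**Figure D1:**
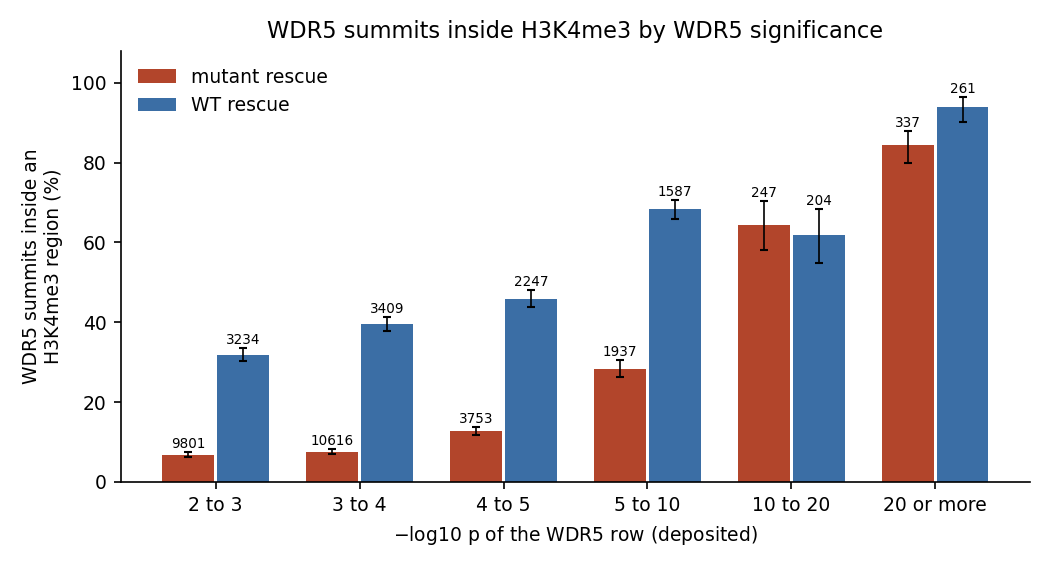
Share of WDR5 summits inside an H3K4me3 region (%, vertical axis from 0) by the deposited −log10 p of the WDR5 peak, for the mutant rescue (red) and WT rescue (blue), with exact 95% binomial intervals and the number of peaks above each bar. The mutant rescue rises from 6.84% to 84.3%, and the WT rescue from 31.8% to 93.9%.

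The deposited −log10 q, which corrects for the many positions tested, gives the same order. Only 1241 mutant rescue WDR5 peaks, 4.65%, had a −log10 q of at least 2, and of these 723 lay inside H3K4me3, which is 58.3% (55.5 to 61.0). Among the 25450 peaks below that value, 8.73% lay inside. The WT rescue shares were 74.5% of 1133 and 41.0% of 9809. The number of peaks past this value was thus about alike in the 2 lines, and most of the additional mutant rescue peaks were entries below it. Read depth is unknown from peak lists, and its part in the number of weak peaks was not tested. By chromosome the share inside ranged in the mutant rescue from 7.62% on chromosome 16 to 17.5% on chromosome 11, and stayed below the lowest WT rescue value, 37.3% on chromosome 14.

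WDR5 summits outside H3K4me3 were mostly far from it. Of 23747 outside summits in the mutant rescue, 1322 lay within 1 kb of a region (5.57%), 6588 between 1 and 10 kb (27.7%), 13216 between 10 and 100 kb (55.7%) and 2621 farther away (11.04%). The median distance was 19.6 kb, with quartiles of 6.76 and 50.7 kb, and the farthest summit was 628.9 kb from any region. Only 55 outside summits lay in a gap of at most 1 kb between 2 regions. The WT rescue median was 10.4 kb, and 12.4% of the 6080 outside summits lay within 1 kb of a region. The 518 outside summits of the mutant rescue with a −log10 q of at least 2 were closer, with a median of 6.69 kb (5.38 to 9.05) and 23.0% within 1 kb.

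**Figure D2:**
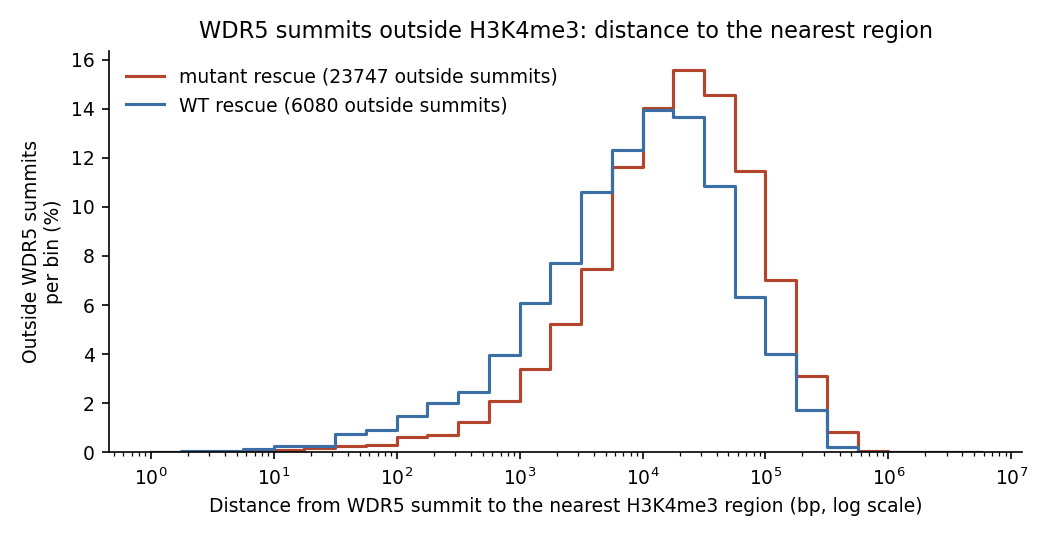
Distance from each WDR5 summit outside H3K4me3 to the nearest H3K4me3 region of its line (bp, log axis), as the percent of outside summits in each of 4 equal log steps per factor of 10. The mutant rescue curve (red, 23747 summits) lies to the right of the WT rescue curve (blue, 6080 summits), with medians of 19.6 and 10.4 kb.

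Inside and outside summits differed in gene context. Inside H3K4me3, 1611 of 2944 WDR5 peaks (54.7%) lay within 1 kb of the start of a protein-coding gene, 18.3% in a gene body away from a start and 26.9% in neither. For the 723 inside peaks past a −log10 q of 2 these shares were 40.9%, 15.5% and 43.6%. Outside, only 1.84% lay at a start, 39.8% in a gene body and 58.4% in neither. Protein-coding gene spans take up 39.99% of the span covered by the lists, and positions within 1 kb of a start take up 2.06%. These genome shares are not a like-for-like background for the outside peaks. They include positions inside H3K4me3, where no outside summit can lie, and the gene spans include positions near starts. Of the 518 outside peaks past a −log10 q of 2, 7.34% lay at a start (5.24 to 9.93) and 30.1% in a gene body away from a start (26.2 to 34.3). Peak strength overlapped: the median fold was 2.57 inside and 2.49 outside, while the 90th percentile was 4.74 inside and 3.04 outside. The median peak width was 244.5 bp inside and 193 bp outside.

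Off H3K4me3, the 10 WDR5 peaks of highest fold in the mutant rescue had folds of 8.85 to 11.92, and 7 of them were 266 to 289 bp wide. The highest, with a fold of 11.92, lay on chromosome 2 at 115502110 to 115502387, 77.3 kb from the nearest H3K4me3 region. It was in or within 200 bp of the long non-coding RNA gene 3110099E03Rik. The next, with a fold of 11.09, lay in Gspt1, which encodes a translation termination factor, 2.46 kb from a region. The widest of the 10 lay in Mettl3, the catalytic subunit of the RNA N6-methyladenosine writer, with 674 bp and a fold of 9.36, 2.36 kb from H3K4me3. Others lay in Ybx3, which encodes a cold shock domain protein, with a fold of 10.12, in Adcy1, an adenylate cyclase gene, with 9.94, and at the small heat shock gene Hspb8, with 8.87. A pair of them lay beside transfer RNA genes, near Lasp1 and near Fcgr3, at 1.99 and 0.182 kb from H3K4me3. All but the one near Lasp1 also overlapped a peak of the WT rescue WDR5 list.

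Within H3K4me3 regions, WDR5 summits of the mutant rescue lay toward the middle and near the H3K4me3 summit. The central 20% of the region's width held 31.8% of the 2944 summits (30.2 to 33.5), and the outer 20% at both ends, together 40% of the width, held 24.7%. The median distance to the H3K4me3 summit was 172.5 bp (162 to 185), the median distance to the nearest edge 403 bp, and 35.6% of the summits lay within 100 bp of the H3K4me3 summit. The distance grew with the width of the region. It was 59.5 bp in regions under 1 kb, 200.5 bp in regions of 1 to 2 kb and 376 bp in the 408 cases in wider regions. In the widest class the centre held 24.02% of the summits, and the ends, which together make up 40% of the width, held 29.9%. The WT rescue median was 161 bp to the H3K4me3 summit, with 34.3% in the centre and 19.1% at the ends.

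A small group stood apart in this measure. In H3K4me3 regions of 250 to 300 bp, 95 mutant rescue WDR5 summits had a median distance of 8 bp to the H3K4me3 summit, and 68.4% lay in the central 20% of the region. Of the 283 WDR5 peaks with a fold of at least 5 and a summit inside H3K4me3, 52 were themselves 250 to 300 bp wide, and 27 of these lay in H3K4me3 regions of that same width. Narrow entries of equal width at one place in both antibodies also occurred in the WT rescue, where 62 of 85 such peaks did so. The input libraries that could show the signal without an antibody at these places were not analysed here, and their part was not tested. This limit also applies to the narrow peaks named off H3K4me3 and to the 276 bp peak at H2-D1. Leaving narrow entries out of both lists gave 10.6% of summits inside and a median distance of 183 bp to the H3K4me3 summit.

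At gene starts whose strand is known, WDR5 summits inside H3K4me3 lay mainly downstream of the start. They were picked for lying inside H3K4me3, whose own summits lay mainly downstream, and the part of this choice in their position was not tested. Of 1298 mutant rescue summits, 69.4% lay downstream, with a median position of +132.5 bp (+119 to +147), and 39.1% lay 100 to 400 bp downstream. Within 50 bp of the start itself lay 10.5%, and 14.1% lay 200 to 600 bp upstream. These windows differ in width. In equal bins of 50 bp, 9.17% lay from 100 to 150 bp downstream and 6.09% from 0 to 50 bp downstream. No bin from 200 to 600 bp upstream held more than 3.24%. The H3K4me3 summits of regions with a WDR5 peak lay farther in, at a median of +202.5 bp (+197 to +212, n = 1304), with 87.5% downstream. In regions without a WDR5 peak the H3K4me3 summits lay at +183 bp (n = 9840). The WDR5 summits were more spread out than the H3K4me3 summits, 67.6% of which fell 100 to 400 bp downstream. The 242 WDR5 summits with a −log10 q of at least 2 lay at +142 bp. The WT rescue WDR5 median was +169 bp (+160 to +178, n = 2655), and 9.57% of summits lay 200 to 600 bp upstream.

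**Figure D3:**
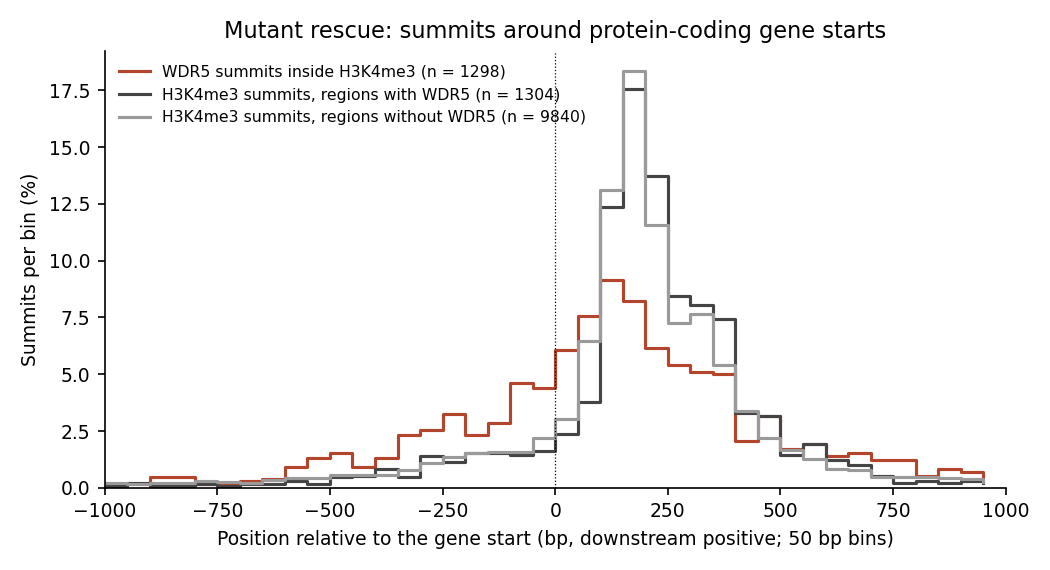
Positions of summits around protein-coding gene starts in the mutant rescue (bp, downstream positive, 50 bp bins), as the percent of each set per bin. WDR5 summits inside H3K4me3 (red, median +132.5 bp) lie mainly downstream of the start with a broad upstream shoulder, and H3K4me3 summits (dark grey with WDR5, light grey without) form a sharper peak at medians of +202.5 and +183 bp.

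From the side of the mark, 3061 of 71757 H3K4me3 regions of the mutant rescue held a WDR5 peak, which is 4.27%. The WT rescue count was 4671 of 69221, or 6.75%. In the mutant rescue 166 regions held 2 or more WDR5 peaks, and the most in a region was 5. Taken over all widths and gene contexts, H3K4me3 regions with a WDR5 peak were wider and stronger than those without. Their median width was 1344 bp (quartiles 899 and 1713 bp) against 706 bp (333 and 1237 bp), and their median H3K4me3 fold 8.66 against 4.06. At least 1 kb wide were 71.7% of the regions with WDR5 and 36.01% of those without. On every one of the 19 chromosomes the regions with WDR5 had the higher median width, 1232 to 1449 bp against 634 to 799 bp. A wide region is more easily overlapped by chance, so width was also compared within gene context and per length.

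Gene context differed as much as width. A protein-coding gene start lay within 1 kb of 54.1% of regions with WDR5 (52.3 to 55.8) and of 18.7% of those without. Gene bodies away from a start accounted for 17.6% and 35.99%, and positions in neither for 28.3% and 45.3%. Starts of long non-coding RNA genes alone accounted for similar shares, 4.35% and 3.89%. Read the other way, 11.4% of the 14533 regions at a gene start held a WDR5 peak, 2.14% of those in gene bodies and 2.71% of the remainder. Among regions at a start the width difference was smaller, 1556 bp with WDR5 and 1365 bp without. In gene bodies it was 1012 against 572.5 bp. Per Mb of H3K4me3 there were 86.7 WDR5 peaks at starts, 30.2 in gene bodies and 39.98 elsewhere, and the corresponding WT rescue values were 161.8, 35.8 and 42.8. The lines thus lay farthest apart at gene starts.

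The dependence on width had a different form in the 2 lines. In the mutant rescue the share of regions with a WDR5 peak was 6.31% at 1000 to 1500 bp, 10.3% at 1500 to 2000 bp, 11.96% at 2000 to 3000 bp and 9.46% of the 148 regions over 3000 bp. The WT rescue share climbed through the same classes from 9.06% to 19.2%, 29.5% and 40.3%. Per Mb of H3K4me3 the mutant rescue stayed nearly level across these classes over 1 kb, at 53.4, 65.0, 58.7 and 43.3 WDR5 peaks, where the last value rests on 21 peaks. The WT rescue rose from 76.5 to 122.3, 146.5 and 157.1 per Mb. Among peaks past a −log10 q of 2 the lines were closer, at 10.2, 14.8, 16.3 and 16.5 per Mb in the mutant and 9.51, 16.0, 24.1 and 19.9 per Mb in the WT rescue. The distance between the lines in broad regions was smaller among these peaks than among all peaks. Counted this way, the narrowest mutant rescue regions had the highest values, with 73.8 peaks per Mb up to 250 bp and 99.2 from 251 to 300 bp. Then came 39.2 up to 500 bp and 32.4 up to 1000 bp. A peak that touches a region by 1 bp is counted, and the median WDR5 peak was 197 bp wide. This raises the value per Mb most in narrow regions, so these classes are not comparable with the wide ones. The WT rescue values in these narrow classes were 68.3, 119.2, 34.6 and 33.4. For mutant rescue peaks past a −log10 q of 2 they were 30.15, 48.7, 14.1 and 9.05.

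**Figure D4:**
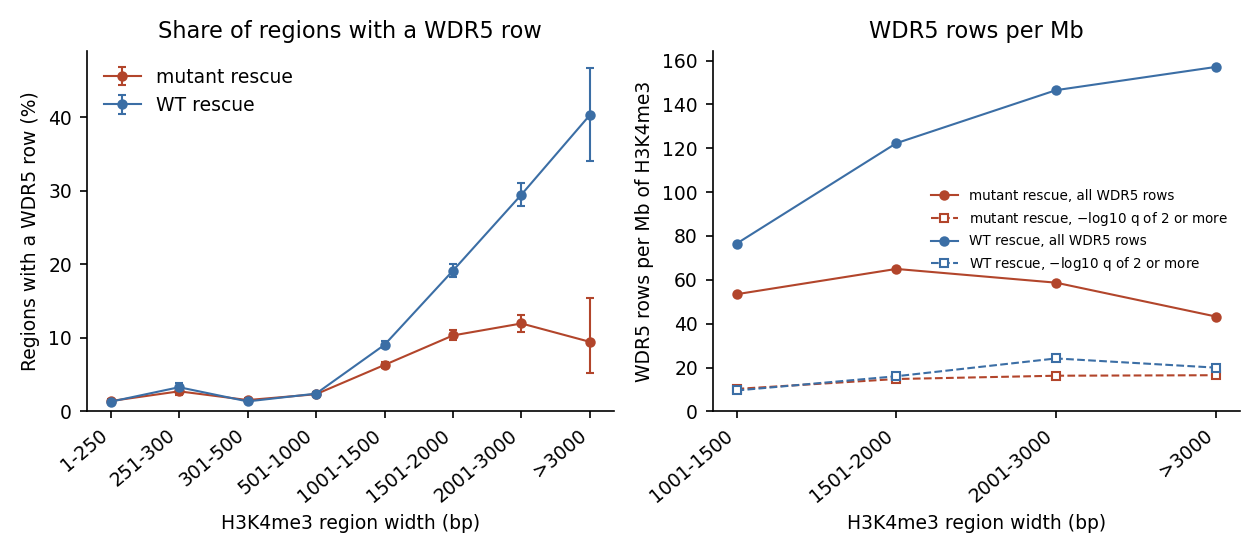
Left, share of H3K4me3 regions with a WDR5 peak (%, exact 95% binomial intervals) by region width (bp). Right, WDR5 peaks per Mb of H3K4me3 in regions over 1 kb, for all peaks (filled) and for those with a −log10 q of at least 2 (open). In regions over 3000 bp the share is 9.46% in the mutant rescue (red) and 40.3% in the WT rescue (blue).

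The widest H3K4me3 regions with and without WDR5 are named as examples. They were chosen by the presence of WDR5 in the mutant rescue, so their WT rescue values are a description only. Of the 10 widest mutant rescue regions without a WDR5 peak, the widest, 4620 bp on chromosome 13 at 44729657 to 44734276, lay at the start of Jarid2, which encodes a subunit of Polycomb repressive complex 2. Next came Anp32a, a gene for an acidic nuclear phosphoprotein (3963 bp), and Arrdc3, an arrestin domain gene (3899 bp). A region of 3883 bp lay over Malat1, an abundant nuclear long non-coding RNA. Regions of 3871 bp at the transcription factor gene Myc, 3859 bp at the RNA-binding protein gene Igf2bp1 and 3842 bp at the cell cycle kinase gene Cdk6 also held no WDR5 peak. One of 3754 bp lay inside Esrrb, a naive pluripotency transcription factor gene, and one of 3753 bp lay over Zbtb37 and the small nucleolar RNA host gene Gas5. In the WT rescue the H3K4me3 regions at Malat1, Myc, Igf2bp1, Cdk6 and Zbtb37 held a WDR5 peak, and those at Jarid2, Anp32a, Arrdc3 and Esrrb did not.

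Of the 10 widest regions with a WDR5 peak in the mutant rescue, the widest, 4249 bp on chromosome 17 at 39843045 to 39847293, held 5 WDR5 peaks and overlapped Rn18s-rs5, an annotated ribosomal RNA pseudogene, far from any protein-coding gene. Reads of repeated ribosomal DNA can be assigned to such a copy, so its values are uncertain. The next, 3423 bp nearest Prss16 with 2 WDR5 peaks, and the one at Ang and Rnase4, 3394 bp with 3 WDR5 peaks, overlapped transfer RNA genes. Others lay at Marcks, a gene for an actin-binding kinase substrate (3287 bp), at the shared start of the mitochondrial chaperonin genes Hspd1 and Hspe1 (3147 bp), and at Nfib (3101 bp), Irf2bp2 (3096 bp) and Zswim6 (3075 bp). These last 5 span gene starts, as do most of the regions without WDR5 named above. Of the 10 regions, 5 held no WDR5 peak in the WT rescue.

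Counted by gene, 14344 of 20665 protein-coding genes had an H3K4me3 region within 1 kb of the start in the mutant rescue, which is 69.4%. The WT rescue share was 70.2%. In the mutant rescue 1842 of these genes, 12.8%, had a WDR5 peak in that region, and in the WT rescue 3585 genes, 24.7%. Counting only WDR5 peaks that reach a −log10 q of 2, the shares were 2.63% and 3.68%. Genes with a WDR5 peak in both lines numbered 937, which is 50.9% of the mutant rescue genes and 26.1% of the WT rescue genes. By width of the widest H3K4me3 region at the start, the share of genes with WDR5 in the mutant rescue was 5.13% up to 1 kb, 10.8% up to 1500 bp, 15.8% up to 2000 bp and 19.3% up to 3000 bp, against 5.51%, 17.7%, 28.8% and 42.2% in the WT rescue. At narrow start regions the lines were thus alike, and they parted as the region widened.

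The cytosolic ribosomal protein genes stood highest among the 20 lists of protein-coding genes. Of 78 members with H3K4me3 at the start, 51 (65.4%, 53.8 to 75.8) had a WDR5 peak in that region in the mutant rescue, and 43 had one with a −log10 q of at least 2. In the WT rescue these were 62 of 80 and 44. The 51 peaks had folds from 2.03 to 17.75 with a median of 10.82, and widths from 178 to 2561 bp with a median of 1178 bp. The other WDR5 peaks inside H3K4me3, transfer RNA peaks also set aside, had a median fold of 2.52 and a median width of 235 bp. At 38 of these genes the strand is known, and the WDR5 summits lay at a median of +153.5 bp, with 33 of 38 between 100 and 400 bp downstream. The folds were 15.3 for Rpl27, 15.2 for Rps15a and 15.02 for Rpl13, and 14.7 for Rpl31. The width of H3K4me3 did not separate members with WDR5 (median 2007 bp) from those without (2082 bp). Among the latter were Rpl4, with 3155 bp, and Rps25, with 2735 bp, both of which held WDR5 in the WT rescue. Cct4, which encodes a chaperonin subunit, was also among the 10 genes of highest fold, at 15.04, and all 10 WDR5 peaks overlapped a WDR5 peak of the WT rescue.

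Counts for translation, nucleolar and splicing factor genes were lower in the mutant than in the WT rescue, as was the share over all genes with H3K4me3, 12.8% against 24.7%. Of 34 translation factor genes with H3K4me3, 8 held WDR5 in the mutant rescue, 5 of them with a −log10 q of at least 2, against 22 in the WT rescue. The strongest were Eif4g1, an initiation scaffold (fold 11.7), Eef1g, an elongation factor subunit (11.5), Eef2, the translocation factor (8.70), and Eif3d (8.01), and all 4 also held WDR5 in the WT rescue. Nucleolar factor genes were at 5 of 18 against 13 of 18, with folds of at most 3.04, at Gar1. Splicing factor genes were at 10 of 36 against 24 of 36, and only Snrpb, a core spliceosome gene, had a high fold, 9.24. Mitochondrial ribosomal protein genes, at 9 of 77 (11.7%), lay close to the share of all genes with H3K4me3, 12.8%, and reached 15 of 77 in the WT rescue.

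For the genes of the KMT2/SETD1 complexes the counts were small. Of 17 members with H3K4me3 at the start, none held a WDR5 peak in the mutant rescue (0%, upper bound 19.5%), against 8 of 17 in the WT rescue. The shares over all genes with H3K4me3 at the start, 12.8% and 24.7%, lie within the intervals of the list in the mutant rescue (0 to 19.5%) and in the WT rescue (23.0 to 72.2%). The widest of these regions lay at the methyltransferase genes Kmt2c (2868 bp) and Kmt2a (2469 bp), at Wdr82 (2269 bp), a SETD1 complex subunit, and at Setd1a (2127 bp). At Wdr5 itself, deleted in both lines, the H3K4me3 region was 1769 bp wide with a fold of 7.43 and no WDR5 peak, and its WT rescue counterpart of 1987 bp held one. Reads of a rescue construct and of the gene cannot be told apart where they share sequence. At Trp53, also disrupted, an H3K4me3 region of 1574 bp held no WDR5 peak in either line.

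Among pluripotency genes, 1 of 24 naive genes held WDR5 within H3K4me3 in the mutant rescue, namely Klf2, with a fold of 1.87 and a −log10 q of 0. This compares with 8 of 24 in the WT rescue. The shares over all genes were 12.8% in the mutant and 24.7% in the WT rescue, and the interval of the naive list in the mutant rescue (0.105 to 21.1%) holds the former. The regions without WDR5 were broad, with 3378 bp at Klf4, 3225 bp at Tbx3, 3074 bp at Prdm14 and 2905 bp at Fgf4, and of these 4 the one at Klf4 held WDR5 in the WT rescue. Formative and primed genes were at 2 of 15 against 6 of 15, with folds of 2.94 at Etv4 and 2.90 at Pou3f1. Germ layer lists were small and mixed. Neuroectoderm and eye field genes were at 4 of 17 in the mutant and 2 of 17 in the WT rescue, with weak peaks at genes such as Nes (2.83), Sox1 (2.67) and Nr2e1 (1.93). Mesoderm genes were at 2 of 15 against 1 of 16, the 2 being T and Mesp2, and endoderm genes at 0 of 9 against 3 of 9. None of the neuroectoderm, mesoderm or naive peaks in the mutant rescue reached a −log10 q of 2, and with so few members the intervals of the 2 lines overlapped in each germ layer list.

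For the remaining lists the shares over all genes, 12.8% in the mutant and 24.7% in the WT rescue, are the values to read against. Polycomb subunit genes were at 5 of 26 in the mutant and 12 of 26 in the WT rescue, and the highest fold was 3.10, at Pcgf5. MYC network genes were at 4 of 19 and 5 of 19, led by Mnt, a MYC antagonist, with a fold of 3.77. Targets of p53 were at 5 of 23 and 8 of 23, in cells that lack p53. Glycolysis genes were at 2 of 13 and 7 of 13, proteasome genes at 3 of 31 and 10 of 31, and Hox genes at 5 of 35 and 8 of 35. Histone genes were at 12 of 58 and 22 of 58, but neighbours such as H2ac13, H2bc13 and H3c10 share 1 region and 1 WDR5 peak, and the peak counted for H4c8 lay at a transfer RNA gene. Fibroblast genes were at 1 of 6 and 1 of 8, the gene being Vim in the mutant rescue, and olfactory receptor genes at 0 of 19 and 0 of 22 of 1100 members.

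**Figure D5:**
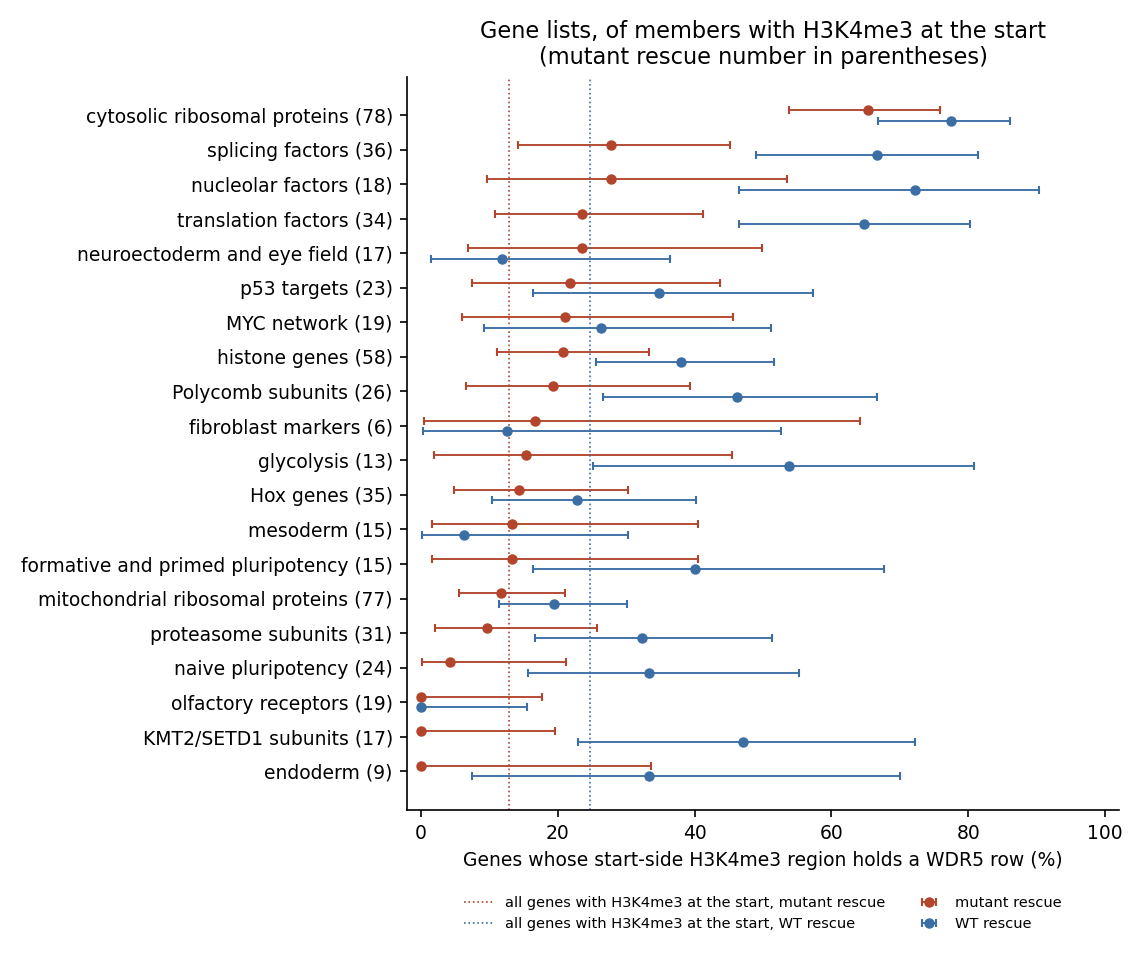
Percent of genes with a WDR5 peak in the H3K4me3 region at their start, by gene list, among members with H3K4me3 there (number for the mutant rescue in parentheses), with exact 95% binomial intervals; dotted lines mark all protein-coding genes with H3K4me3 at the start, 12.8% in the mutant rescue (red) and 24.7% in the WT rescue (blue). Cytosolic ribosomal proteins stand at the top at 65.4% in the mutant rescue, and the KMT2/SETD1 list is at 0% there.

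Transfer RNA genes, which RNA polymerase III transcribes from promoters within the gene, formed another group with strong WDR5 peaks. Of the 723 inside peaks with a −log10 q of at least 2, 548 belonged to neither this group nor the ribosomal protein genes. The highest fold of all inside peaks, 60.98, was also outside both groups. Of 391 transfer RNA genes on chromosomes 1 to 19, 269 had an H3K4me3 region within 200 bp in the mutant rescue. Of these, 252 (93.7%, 90.1 to 96.3) also had a WDR5 peak within 200 bp. In the WT rescue it was 76 of 268 (28.4%, 23.0 to 34.2). Of the 122 genes without H3K4me3 nearby, 19 had WDR5 (15.6%), against 1 of 123 in the WT rescue. Seen from the mark, 4.27% of all H3K4me3 regions held WDR5 in the mutant rescue and 6.75% in the WT rescue. Of those no farther than 200 bp from a transfer RNA gene, 186 of 210 held WDR5 in the mutant rescue (88.6%). In the WT rescue 69 of 212 did (32.5%), and both shares were thus above those over all regions. Away from protein-coding gene starts it was 149 of 171 in the mutant rescue. Transfer RNA genes lie in clusters, so the regions near them are not independent, and 73 of the 210 lay on chromosome 13, of which 69 held WDR5.

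The WDR5 peaks at transfer RNA genes were among the strongest of the mutant rescue list. Their number was 208, their folds ran from 2.00 to 12.5 with a median of 6.46, and 200 of them (96.2%) had a −log10 q of at least 2. The WT rescue list held 67, with a median fold of 2.88 and 16 past that value. They made up 38.3% of the 337 mutant rescue peaks with a −log10 p of at least 20, and 0.383% of the 261 such peaks in the WT rescue. Their position differed from that of the other WDR5 peaks. Inside H3K4me3 lay 136 of the 208 summits (65.4%, 58.5 to 71.8), a higher share than the 11.03% of all mutant rescue WDR5 summits. It was closer to the 58.3% (55.5 to 61.0) among all mutant rescue peaks past a −log10 q of 2, and these intervals overlapped. Those 1241 peaks include 200 of the transfer RNA peaks, so the 2 sets are not separate. The 72 transfer RNA summits outside were at a median of 0.095 kb from a region. Of the inside ones 41.2% lay in the outer 20% at either end of the region, against 24.7% of all inside summits. The WDR5 summit lay at a median of 70 bp from the middle of the transfer RNA gene, whereas the H3K4me3 summit of regions there lay at 356.5 bp. Both sets were picked for lying within 200 bp of such a gene, so a narrow entry must have its summit near it. The WDR5 peaks had a median width of 519.5 bp, and the H3K4me3 regions with WDR5 one of 1392 bp. The part of width in the difference between the medians was not tested. Leaving these peaks out gave 10.6% of WDR5 summits inside H3K4me3.

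The base composition of promoters was set beside these counts, using 20085 RefSeq windows of 300 bases, 250 before and 50 after the start. Windows whose start lay in an H3K4me3 region with a WDR5 peak (n = 1608) had a median of 26 CpG and a GC content of 64.3%. Those in regions without WDR5 (n = 10995) had 21 CpG and 62.0%, and those outside H3K4me3 (n = 7482) had 3 CpG and 47.0%. The 8 motifs were searched on both strands, and none contains another, so matches can overlap only at their ends. CACGTG, the E-box bound by MYC, was in 14.2% of windows with WDR5 (12.5 to 16.0), in 9.85% of those without and in 7.89% of all windows. GGGCGG, an SP1-type element, was in 72.1%, 68.0% and 47.0%, and GCGCATG was in 8.96%, 6.84% and 4.84%. Where the WDR5 peak passed a −log10 q of 2 (n = 347), CACGTG was in 15.6%, GGGCGG in 69.5% and GCGCATG in 6.05% (3.79 to 9.10), an interval that holds the share without WDR5.

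For the other motifs the shares are given in the same order, with any WDR5 peak, without one and in all windows. CCGGAAG, an ETS-type element, was in 18.8% and 17.6%, and in 11.9% of all windows. In the 347 windows with the stronger WDR5 peaks it was in 23.9% (19.5 to 28.8). It occurs in the promoters of Rpl26, Rpl35 and Rpl11 printed above. AAGATGG was in 7.71%, 6.45% and 6.29%, and in 10.7% (7.62 to 14.4) of the windows with the stronger peaks. CCAAT was in 36.5%, 37.4% and 38.1%, TATAAA in 5.29%, 6.11% and 12.7%, and CTTTT in 40.05%, 42.8% and 50.4%. Of the 5 printed promoters, H2-D1 alone holds TATAAA, together with CCAAT. These motifs vary with GC content, which also differed between the sets, and their part in the presence of WDR5 was not tested.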

How the data were processed

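WDR5 and H3K4me3 peaks of the mutant rescue were compared on chromosomes 1 to 19, with the WT rescue lists beside them. The submitters' processing notes name MACS2 2.1.2, Picard, BWA 0.7.17-r1188, SAMtools and the mm10 build. The settings and the controls are not given in the sources used here. Each deposited list holds, per peak, a fold enrichment (a ratio) and −log10 p and −log10 q values as the authors' caller wrote them, and no pooling of libraries is noted. The score that the authors' caller deposited beside them was not used. Read depth is unknown, which limits what peak numbers and widths can show.

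Summits were the peak start plus the deposited offset. Genes came from RefSeq tables on GRCm38.p6. Of 20665 protein-coding genes, 16457 had a start with strand in the promoter table. The other 4208, chromosome 18 included, were placed by both gene ends, and a region within 1 kb of either counted. Transfer RNA genes used 200 bp. Shares have exact (Clopper-Pearson) 95% intervals and medians order-statistic intervals. The interval code was tested on simulated data and gave the same counts as bedtools 2.31.1. Python 3.11.15, numpy 2.4.6, pandas 2.3.3, scipy 1.17.1 and matplotlib 3.10.9 were used.

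The genes named are the 10 of highest WDR5 fold inside H3K4me3 at a start, the 10 widest regions with and without WDR5, the 10 strongest peaks off H3K4me3, up to 4 members per list with and without WDR5, and Wdr5 and Trp53. Where a rule took a region far from a start, the overlapping gene is named. Some genes that the rule takes are left out. Further ribosomal protein values and the narrow entries with a fold of at least 5 were chosen after their values were seen. The comparison, the lists and the motifs were chosen with earlier results of these data known. Alternatives were stricter −log10 q or −log10 p values, narrow entries of 250 to 300 bp left out, other overlap rules, a window of 2.5 kb, transfer RNA peaks left out and a margin of 500 bp. Gene starts from the promoter table alone were added after seeing the data.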

Additional observations from a re-analysis of the deposited data

How the results depend on the processing

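Depth is unknown and there is 1 library per antibody and line, so the limits of these values are those of the peak calls. Under each alternative run, regions with a WDR5 peak stayed wider than those without (5 of 5 alternatives) and lay more often at a gene start (7 of 7). Of the 42 values under alternatives, 10 stayed within the interval of the reported value. With 1 library each, no replicate could be left out. No paired analysis was possible because each antibody and line has 1 library and no result comes from a test.

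The strength asked of WDR5 peaks moved most values. With only the peaks reaching a −log10 q of 2, 58.3% of summits lay inside H3K4me3, 1.10% of regions held WDR5, widths were 1274 bp with and 727 bp without WDR5, gene start shares were 42.4% and 20.01%, outside summits lay at a median of 6.69 kb, and inside summits at 120 bp from the H3K4me3 summit. At a −log10 p of at least 5, 39.4% of summits lay inside and 1.48% of regions held WDR5. Of H3K4me3 regions reaching a −log10 q of 2, 4.62% held WDR5, those without WDR5 were 802 bp wide with 20.4% at a start, and outside summits lay at 20.8 kb. Without entries of 250 to 300 bp the values were 10.6% of summits inside, 3.81% of regions with WDR5, widths of 1386 and 766 bp, 19.9% of regions without WDR5 at a start, and 20.6 kb for outside summits.

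Requiring the WDR5 summit inside the region gave 3.89% of regions with WDR5, a width of 1384 bp and 56.8% at a start, and requiring 50% of the WDR5 peak gave 3.89%, 1386 bp and 57.1%. A window of 2.5 kb gave start shares of 56.2% and 21.2%, and starts from the promoter table only, which leave out 4208 genes, gave 43.7% and 14.8%. Without peaks at transfer RNA genes 10.6% of summits lay inside, and with a margin of 500 bp 13.8% did.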
